A study of Saccharomyces cerevisiae with 15 samples.

Results

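The genes described here encode proteins of the mitochondrial ribosome of budding yeast, Saccharomyces cerevisiae. A gene was a member if its symbol is MRPL, MRPS, MRP or RSM followed by a number and if a probe set of the array names it alone. The rule found 66 genes of the 5449 yeast genes tested, each with 1 probe set. By prefix these were 34 MRPL, 9 MRPS, 11 RSM and 12 MRP genes. By subunit, 37 encode proteins of the large 54S subunit and 28 proteins of the small 37S subunit. The remaining member, MRP8, carries the name from an early classification by sequence and is not a ribosomal protein by current annotation, so counts were also taken without it. The members lie on 14 chromosomes, and MRPS12 and RSM19 on chromosome XIV were the only members that neighbour each other.

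The mitochondrial ribosome translates the few messages of mitochondrial DNA, most of which encode core subunits of the respiratory chain and the ATP synthase. Apart from the small-subunit protein Var1, its proteins are encoded in the nucleus, transcribed by RNA polymerase II, translated in the cytosol and imported. Many of these messages are bound by the RNA-binding protein Puf3, which acts on their stability and translation, and their levels in yeast are known to follow growth rate and carbon source.

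The study compared strains with mutations in the 2 largest subunits of RNA polymerase II. RPO21 (also called RPB1) encodes the largest subunit and RPB2 the next. All strains were W303 derivatives with RAD5, the canavanine resistance allele can1-100 and markers that require adenine (ade2-1), histidine (his3-11,15), leucine (leu2 with its mutations 3 and 112), tryptophan (trp1-1) and uracil (ura3-1). WT1B was W303-1BR5 of mating type MATα, and it was the wild type for rpb1-1 (strain WRP1- 12A) and rpb1S751F (strain WSR8-5A), both MATα and each with the named allele added. WT1A was W303-1AR5 of mating type MATa, and it was the wild type for rpb2-10 (strain WRP2), also MATa. Each mutation was thus represented by 1 strain. Cells were in mid-log phase in liquid YPAD (the series' design text names YPD), and no temperature or shift is given. Each of the 5 groups had 3 biological replicates, 15 arrays in all, and each array measured total RNA as biotin-labelled cRNA on an Affymetrix yeast array. Whether replicates came from separate cultures is not stated, so p-values refer to the spread between these arrays.

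The values were log2 levels. The median of all tested genes was 10.04 to 10.09 on the 9 MATα arrays and 7.75 to 7.83 on the 6 MATa arrays, so the arrays form 2 sets on different scales and each mutant was compared only with the wild type of its own set. Replicates correlated across genes at r of 0.987 to 0.998. Genes specific to a cells, such as STE2, were low in all MATα groups and high in both MATa groups after subtraction of each array's median, except AGA2 and ASG7, which lay below the median in all groups. Of the genes specific to alpha cells, MF(ALPHA)1 and AFB1 stood above the median in all MATα groups, whereas MF(ALPHA)2 lay 2.79 above it in WT1B but -2.65 from it in rpb1-1 and -1.90 in rpb1S751F. STE3 and SAG1 also lay below the median in rpb1-1, at -1.82 and -1.07. All 66 members lay above the 95th percentile of 1746 probe sets for genes of other species on every array. Because RNA of a whole culture was measured on scaled arrays, fewer cells with a transcript and less transcript per cell cannot be told apart, and levels are relative to the other genes on the array.

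Most members that changed were lower in rpb2-10 and in rpb1S751F, whereas in rpb1-1 more rose than fell. A gene was called changed at a Benjamini-Hochberg adjusted p below 0.05 in limma's moderated test over all 5449 genes. In rpb2-10, 53 of the 66 members were called, where 57.0% of all genes tested were. Of these members 49 were lower than in WT1A (30.8% of all genes were) and 4 were higher (26.2% of all genes). In rpb1S751F 43 members were called, where 64.3% of all genes were, with 35 lower than in WT1B (28.3% of all genes) and 8 higher (36.0%). In rpb1-1 38 members were called, where 61.4% of all genes were, and the balance was the other way, with 27 higher (31.7% of all genes) and 11 lower (29.8%).

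The shift was also visible on each array. The median of the members minus the array's median of all genes was 0.77, 0.76 and 0.81 in WT1B, 0.83, 0.88 and 0.77 in rpb1-1, and 0.51, 0.50 and 0.61 in rpb1S751F. On this log2 scale the rpb1S751F arrays all lay below the WT1B arrays, and the rpb1-1 arrays overlapped with them. In the MATa set the values were 0.22, 0.19 and 0.31 in WT1A and 0.01, 0.04 and -0.07 in rpb2-10, so all rpb2-10 arrays were lower. The median replicate SD of a member was 0.04 in WT1B, 0.07 in rpb1-1, 0.10 in rpb1S751F, 0.05 in WT1A and 0.06 in rpb2-10 (n = 3 each). Over all genes tested it was 0.11, 0.12, 0.13, 0.07 and 0.07. The median SE of a fold change was likewise 0.0679 for the members and 0.0949 for all genes. A change of the same size is thus called more readily in the members, and the shares called are not matched for this.

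**Figure D1:**
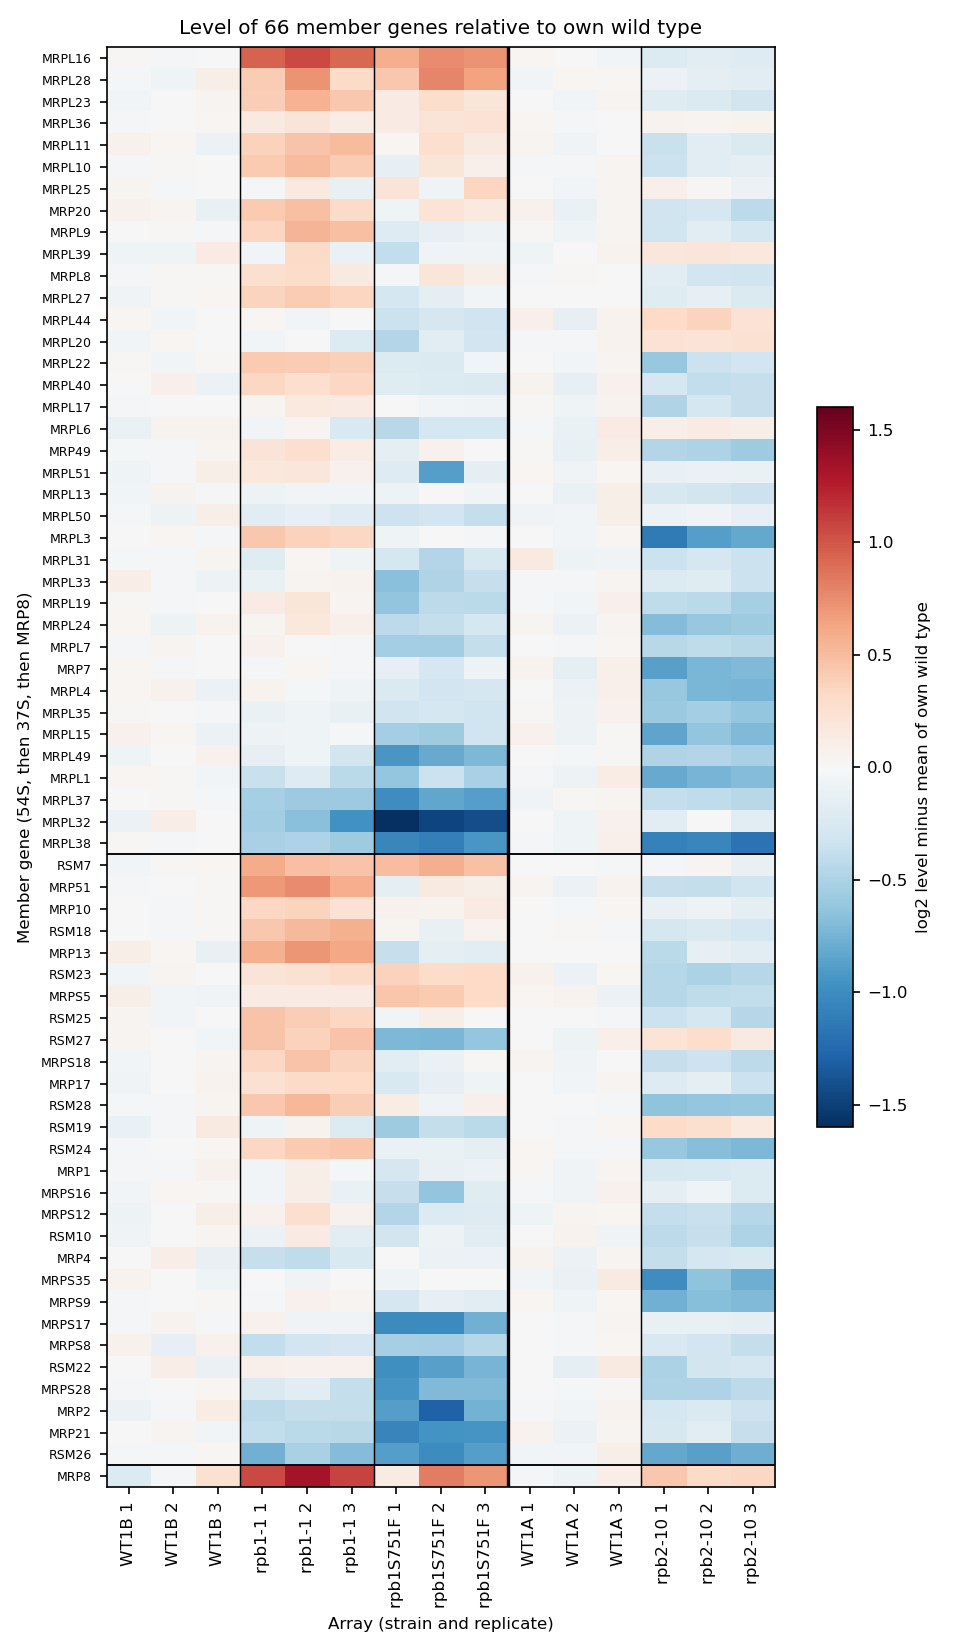
Level of each of the 66 member genes (rows, 54S proteins first, then 37S proteins, then MRP8) on each of the 15 arrays (columns), as log2 level minus the mean of the 3 wild-type arrays of the same set. Blue cells are below and red cells above the wild type, and rpb2-10 is blue in most rows while rpb1-1 has 27 members called higher.

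In rpb2-10, transcripts of both subunits were lower. The 49 members that fell were 74.2% of the 66, and 30.8% of all genes tested fell in this mutant. The 4 that rose were 6.06%, beside 26.2% of all genes. The median log2 fold change of the members was -0.30, against -0.05 for all genes tested, and the members ranged from -1.11 to 0.35. On 55 members all 3 rpb2-10 arrays lay below all 3 WT1A arrays, a pattern found in 42.0% of all genes, and on 7 they lay above, against 34.0% of all genes. Of the 37 genes of 54S proteins 27 fell and 2 rose, and of the 28 genes of 37S proteins 22 fell and 2 rose.

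The lowest large-subunit member in rpb2-10 was MRPL38 (YKL170W), which encodes the relative of bacterial L14, a core protein of the large subunit at the subunit interface. Its log2 level was 8.68, 8.62 and 8.78 in WT1A and 7.61, 7.64 and 7.51 in rpb2-10. All mutant arrays were lower by more than 0.9, the groups did not overlap, and the log2 fold change was -1.11 ± 0.06 (limma, adjusted p = 1.93e-08). MRPL3 (YMR024W) encodes a large-subunit protein with a fold related to RNase III. MRPL3 measured 9.10, 9.05 and 9.12 in WT1A and 7.95, 8.21 and 8.28 in rpb2-10. It too was lower on every mutant array, by 0.94 ± 0.07 on the log2 scale (adjusted p = 4.53e-07). MRP7, whose product is the relative of bacterial L27 near the peptidyl transferase centre, had levels of 8.58, 8.38 and 8.60 in WT1A and 7.65, 7.79 and 7.81 in rpb2-10. Its groups were apart as well, with a log2 fold change of -0.77 ± 0.07.

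Among the small-subunit genes, RSM26 (YJR101W), whose product belongs to the family of iron and manganese superoxide dismutases, stood at 8.68, 8.67 and 8.82 in WT1A and at 7.90, 7.85 and 7.95 in rpb2-10. The fold change was -0.83 ± 0.07 on the log2 scale (adjusted p = 8.58e-07), with no overlap. MRPS35, a small-subunit protein gene, had levels of 7.47, 7.40 and 7.66 in WT1A and 6.52, 6.86 and 6.73 in rpb2-10, a change of -0.81 ± 0.09. All rpb2-10 arrays were again lower, although MRPS35 was the member with the widest spread in rpb2-10, with an SD of 0.17.

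The 4 members that rose in rpb2-10 did so by 0.22 to 0.30 on the log2 scale. MRPL44 was 8.11, 7.91 and 8.09 in WT1A and 8.36, 8.39 and 8.27 in rpb2-10, which gave 0.30 ± 0.06. RSM19 (0.24 ± 0.08), the gene of the relative of bacterial S19, MRPL20 (0.23 ± 0.08) and RSM27 (0.22 ± 0.06) completed the set, and in all 4 the arrays of the groups were apart. RSM19 and MRPL20 were no longer called when single arrays were left out, with adjusted p up to 0.0961 for RSM19 and 0.0604 for MRPL20 in limma, and the number of members called higher fell from 4 to 2 without WT1A replicate 1 or without WT1A replicate 2. Of the 53 calls, 45 held whichever array of the comparison was left out. MRP8 measured 8.93, 8.89 and 9.08 in WT1A and 9.39, 9.28 and 9.30 in rpb2-10, with no overlap, but its difference of 0.35 ± 0.16 did not pass (adjusted p = 0.0736).

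**Figure D2:**
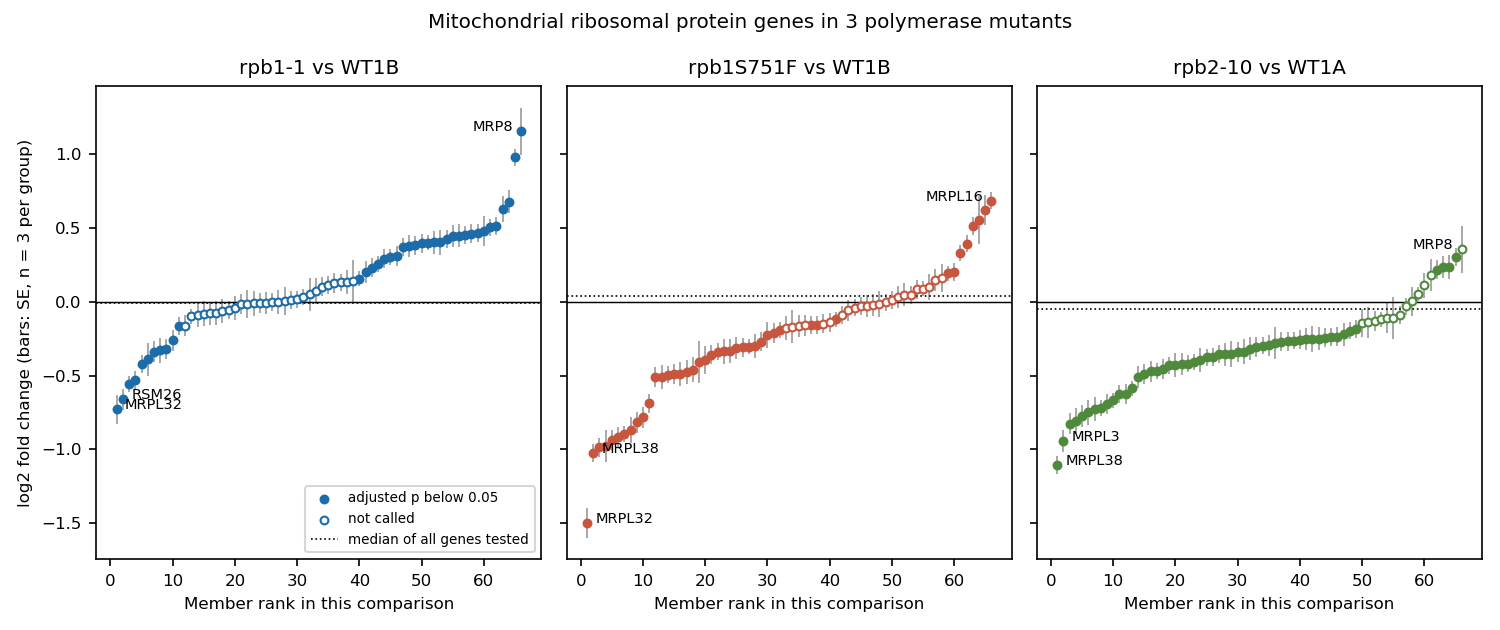
Log2 fold change of each of the 66 members in the 3 mutants, ordered from lowest to highest within each panel, with bars of 1 SE (n = 3 arrays per group) and filled points for adjusted p below 0.05. The dotted line is the median of all genes tested. The rpb2-10 points lie mostly below it, with a median of -0.30, and the rpb1-1 points lie on both sides.

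In rpb1S751F most called members were lower. The 35 members that fell were 53.0%, against 28.3% of all genes tested, and the 8 that rose were 12.1%, against 36.0% of all genes. The median was -0.18 beside 0.04 for all genes, within a range of -1.50 to 0.68. All 3 rpb1S751F arrays were below all WT1B arrays on 39 members (27.5% of all genes) and above them on 8 (35.0% of all genes). Both subunits took part, with 20 of the 37 54S genes and 15 of the 28 37S genes lower, and 4 and 3 higher.

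The furthest from wild type was MRPL32 (YCR003W), which encodes a large-subunit protein that the m-AAA protease of the inner membrane processes, a step needed for ribosome assembly. MRPL32 measured 12.51, 12.70 and 12.59 in WT1B and 10.99, 11.13 and 11.19 in rpb1S751F. Every mutant array was lower by at least 1, and the log2 fold change was -1.50 ± 0.10 (adjusted p = 5.76e-08), which is 0.354 of the wild-type level on the linear scale. MRPL38 followed, at 11.60, 11.57 and 11.59 in WT1B and 10.54, 10.49 and 10.65 in rpb1S751F. Its groups were also far apart, with -1.03 ± 0.06 (adjusted p = 1.94e-08). MRPL32 and MRPL38 were the only members called with a log2 change of 1 or more in this comparison.

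The next 3 from the lowest encode small-subunit proteins. MRP21 (YBL090W), the gene of the relative of bacterial S21, which is genetically linked to the leaders of mitochondrial COX messages, measured 10.92, 10.97 and 10.87 in WT1B and 9.87, 9.96 and 9.97 in rpb1S751F. That is a fall of 0.99 ± 0.06 on the log2 scale, without overlap. MRP2, the gene of the relative of bacterial S14, stood at 11.02, 11.08 and 11.23 in WT1B and at 10.23, 9.81 and 10.36 in rpb1S751F. It was lower on each mutant array, by 0.97 ± 0.11, with replicate 2 the lowest. MRPS17, the gene of the relative of bacterial S17, had levels of 12.06, 12.14 and 12.07 in WT1B and 11.08, 11.07 and 11.32 in rpb1S751F, which do not overlap and differ by -0.93 ± 0.07.

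The 8 members that rose in rpb1S751F were MRPL16, MRPL28, MRP8, RSM7, MRPS5, RSM23, MRPL23 and MRPL36. MRPL16 (YBL038W), whose product is the relative of bacterial L16 near the tRNA binding sites, measured 10.59, 10.54 and 10.58 in WT1B and 11.15, 11.32 and 11.29 in rpb1S751F. It was higher on every mutant array, by 0.68 ± 0.06 (adjusted p = 4.84e-07). MRPL28 rose by 0.62 ± 0.10, RSM7, the gene of the relative of bacterial S7, by 0.51 ± 0.06, MRPS5 by 0.39 ± 0.06 and RSM23, which is related to the human GTP-binding protein DAP3, by 0.33 ± 0.06. For MRP8 the arrays overlapped (11.23, 11.43 and 11.70 against 11.58, 12.27 and 12.16) although it was called, at 0.55 ± 0.16. Of the 43 calls, 37 held whichever array was left out, all 8 higher ones among them. MRPL51 was called at -0.41 ± 0.14, yet its rpb1S751F arrays read 10.60, 9.92 and 10.65, and without replicate 2 the change was -0.17. The call was lost without WT1B replicate 3 (adjusted p = 0.0705).

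In rpb1-1 the members moved both ways. The 27 that rose were 40.9%, against 31.7% of all genes tested, and the 11 that fell were 16.7%, against 29.8%. The remaining 28 did not pass. The median was 0.09, beside -0.01 for all genes, and the range was -0.73 to 1.15. All 3 mutant arrays stood above all WT1B arrays on 30 members (32.2% of all genes) and below them on 13 (31.0% of all genes). The share that rose is therefore not far from the background, and 35 of the 38 calls held whichever array was left out. By subunit, 14 of the 37 54S genes (37.8%) and 12 of the 28 37S genes (42.9%) rose, and 5 and 6 fell. By prefix, 7 of 11 RSM genes, 7 of 12 MRP genes, 12 of 34 MRPL genes and 1 of 9 MRPS genes rose, where RSM and MRPS both name 37S proteins.

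The largest increase in rpb1-1 was that of MRP8 (YKL142W), at 11.23, 11.43 and 11.70 in WT1B and 12.51, 12.78 and 12.53 in rpb1-1. The groups did not overlap and the log2 fold change was 1.15 ± 0.16 (adjusted p = 3.2e-05). Among ribosomal proteins MRPL16 led, at 11.52, 11.62 and 11.49 in rpb1-1 against 10.59, 10.54 and 10.58 in WT1B. That is 0.98 ± 0.06 (adjusted p = 1.65e-08), or 1.97 times the wild-type level. MRP51, whose small-subunit product is genetically linked to COX message leaders, measured 11.31, 11.33 and 11.36 in WT1B and 12.02, 12.10 and 11.92 in rpb1-1, without overlap, at 0.68 ± 0.08. MRP13 (0.63 ± 0.09) and RSM7 (0.51 ± 0.06), both small-subunit genes, came next.

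The lowest in rpb1-1 was MRPL32, with 12.04, 11.93 and 11.63 beside 12.51, 12.70 and 12.59 in WT1B. The groups were apart, at -0.73 ± 0.10 (adjusted p = 2.99e-05). RSM26 read 10.50, 10.75 and 10.58 beside 11.25, 11.26 and 11.31, a change of -0.66 ± 0.07 with no overlap. MRPL37 followed at -0.56 ± 0.05, MRPL38 at -0.53 ± 0.06 and MRP21 at -0.42 ± 0.06.

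**Figure D3:**
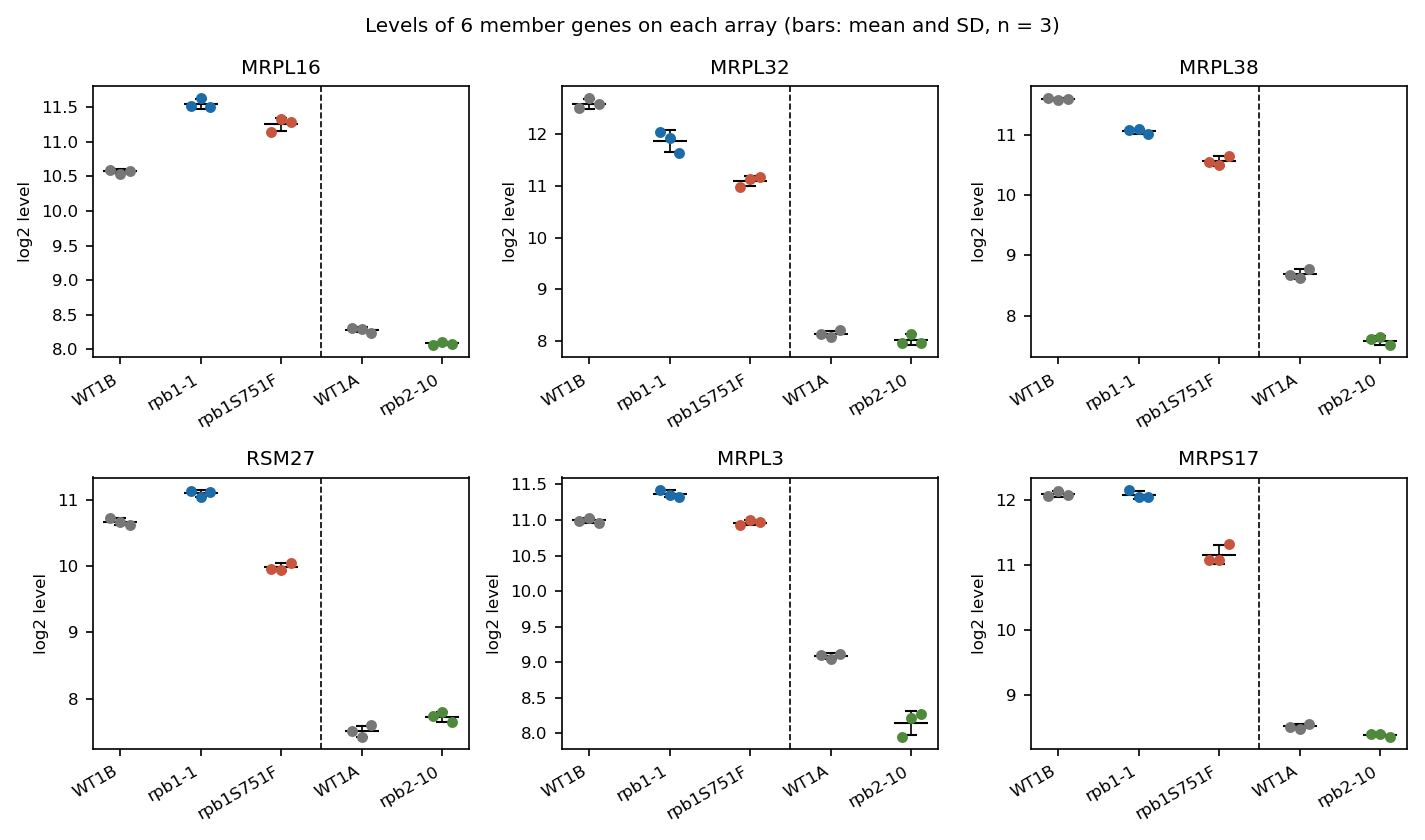
Log2 level of 6 member genes on each array (points), with the mean and SD of each group (bars, n = 3). The dashed line separates the MATα from the MATa arrays, whose scales differ. MRPL16 is higher in both rpb1 alleles, MRPL38 is lower in all 3 mutants, and RSM27 is higher in rpb1-1 and lower in rpb1S751F.

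The alleles of RPO21 differed from each other in most members. Tested directly, 53 of the 66 differed, where 56.6% of all genes did. In 51 the level was higher in rpb1-1 than in rpb1S751F, or 77.3%, beside 27.3% of all genes, and 2 were lower, or 3.03%, beside 29.3% of all genes. The median difference was 0.36, against 0.00 for all genes. The largest was that of RSM27 (YGR215W), a small-subunit gene, which measured 10.72, 10.67 and 10.62 in WT1B, 11.13, 11.03 and 11.12 in rpb1-1, and 9.95, 9.94 and 10.05 in rpb1S751F. The 3 groups do not overlap, with the wild type between the alleles, and the alleles differed by 1.11 ± 0.06 (limma, adjusted p = 7.45e-09). RSM22, which encodes a small-subunit protein with a predicted methyltransferase fold, differed by 0.94 ± 0.09 and MRPS17 by 0.92 ± 0.07. In both, the level in rpb1-1 was within 0.1 of WT1B on the log2 scale and the fold change did not pass, whereas rpb1S751F was lower, RSM22 by 0.87 ± 0.09. The 2 members lower in rpb1-1 were MRP4, the gene of the relative of bacterial S2 (-0.28 ± 0.07), and MRPS5 (-0.26 ± 0.06). For RSM7, which rose in both alleles, the difference was 0.00 ± 0.06 (adjusted p = 0.988).

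Read across the 3 mutants, 8 members fell in all of them, namely MRPL38, RSM26, MRPL37, MRP21, MRP2, MRPL1, MRPS28 and MRPS8, and none rose in all. That is 12.1% of the members, beside 6.33% of all genes that fell in all 3 and 8.57% that rose in all 3. Both rpb1 alleles are set against the same WT1B arrays, so their fold changes are given side by side only. In the order rpb1-1, rpb1S751F, rpb2-10, the log2 fold changes of MRPL38 were -0.53, -1.03 and -1.11. Those of RSM26 were -0.66, -0.92 and -0.83. MRPL37, a large-subunit gene, had -0.56, -0.90 and -0.41, and MRP21 had -0.42, -0.99 and -0.27. In MRPL37 and MRP21 the change was thus largest in rpb1S751F, while MRPL1, the gene of the relative of bacterial L1, had its lowest value in rpb2-10 (-0.33, -0.49 and -0.75). MRP2 read -0.39, -0.97 and -0.28. The call of MRP2 in rpb2-10 was lost whichever array of that comparison was left out (adjusted p up to 0.11), and also after subtraction of array medians (0.127) and after quantile normalization within each set (0.0819), so its place among the 8 rests on the full set of arrays.

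The largest group with a common pattern held 14 members that rose in rpb1-1, fell in rpb2-10 and did not pass in rpb1S751F, a pattern of 21.2% of the members and 2.75% of all genes. They were MRPL3, MRPL8, MRPL9, MRPL10, MRPL11, MRPL22, MRP20 and MRP49 of the large subunit and MRP17, MRP51, MRPS18, RSM18, RSM25 and RSM28 of the small one. Of these calls, that of MRP49 in rpb1-1 and those of MRPL10 (adjusted p up to 0.124) and MRPL11 (0.055) in rpb2-10 were lost without some arrays. MRP17 (adjusted p = 0.0593), MRPL9 (0.0736) and MRPL22 (0.076) came near the threshold in rpb1S751F, with all mutant arrays below WT1B. A further 13, or 19.7% beside 4.83% of all genes, fell in rpb1S751F and rpb2-10 and did not pass in rpb1-1. These were MRPL4, MRPL7, MRPL15, MRPL19, MRPL24, MRPL31, MRPL33, MRPL35 and MRPL49 of the large subunit and MRP1, MRPS9, MRPS12 and RSM22 of the small one, where MRP1 lost its rpb1S751F call (up to 0.165) and MRPL33 its rpb2-10 call (up to 0.075) without some arrays. MRPL49 was near the threshold in rpb1-1 (adjusted p = 0.0562), with all mutant arrays below WT1B. Another 5 were called in rpb2-10 alone, always lower (MRP7, MRPL13, MRPL17, MRPS35 and RSM10, or 7.58%, beside 5.08% of all genes). Of these, MRP7 (adjusted p = 0.067) and RSM10 (0.0661) were near it in rpb1S751F, again with all arrays below WT1B. A further 4 were called in rpb1S751F alone, also lower (MRPL51, MRPL6, MRPS16 and MRPS17, or 6.06%, beside 4.57%).

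The smaller groups, each of 4 members or fewer, included members that moved in opposite directions. MRPL16, MRPL23 and RSM23 rose in both rpb1 alleles and fell in rpb2-10, although MRPL16 was not called in rpb2-10 after subtraction of array medians (adjusted p = 0.0567). This pattern held 4.55% of the members and 4.35% of all genes, so it was at the background. MRP8, MRPL28, MRPL36 and RSM7 rose in both alleles and did not pass in rpb2-10, with the rpb1-1 call of MRPL36 lost without rpb1-1 replicate 2 (adjusted p = 0.0543). MRP13, MRPL27, MRPL40 and RSM24 rose in rpb1-1 and fell in rpb1S751F and rpb2-10. That pattern held 6.06% of the members and 1.05% of all genes, while the one of MRP8, MRPL28, MRPL36 and RSM7 held 6.06% and 8.44%. Each of MRP13, MRPL27, MRPL40 and RSM24 lost its rpb1S751F call when some array was left out. RSM24 (-0.12) did so whichever array was left out (adjusted p up to 0.126), MRPL27 in 4 of the 6 cases (up to 0.166), MRP13 in 3 (up to 0.14) and MRPL40 in 1 (0.0667). MRP13 and MRPL27 also lost their rpb2-10 calls without some arrays (adjusted p up to 0.127 and 0.069). RSM27 rose in rpb1-1 and rpb2-10 and fell in rpb1S751F (1.52% of the members, beside 0.294% of all genes). RSM19, MRPL20 and MRPL44 fell in rpb1S751F, rose in rpb2-10 and did not pass in rpb1-1 (4.55%, beside 1.28%). MRPL32 and MRPL50 fell in both rpb1 alleles, with the rpb1-1 call of MRPL50 lost in 4 of the 6 cases with 1 array left out (adjusted p up to 0.129). The pattern of MRPL32 and MRPL50 held 3.03% of the members and 6.26% of all genes. MRP4 fell in rpb1-1 and rpb2-10, MRPS5 rose in rpb1S751F and fell in rpb2-10, and MRP10 rose in rpb1-1 alone. Each of these last patterns held 1.52% of the members, beside 2.73%, 2.28% and 3.73% of all genes, so none exceeded the background. With arrays apart but not called, MRPS5 was at 0.13 ± 0.06 in rpb1-1 (adjusted p = 0.0755) and MRP10 at -0.12 ± 0.05 in rpb2-10 (0.0642). MRPL25 and MRPL39 passed in no comparison, as did 10.0% of all genes, with log2 fold changes from -0.17 to 0.18.

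The comparisons of rpb1-1 and of rpb2-10 share no arrays. Of the 27 members higher in rpb1-1, 21 were lower in rpb2-10, which is 77.8% of the former and 42.9% of the 49 lower in rpb2-10. Over all genes tested, 444 were higher in rpb1-1 and lower in rpb2-10, or 25.7% and 26.5% of the respective lists. Of the 11 lower in rpb1-1, 9 were lower in rpb2-10 (81.8% and 18.4%, beside 35.0% and 33.9% over all genes). Of the 35 lower in rpb1S751F, 25 were lower in rpb2-10, or 71.4% and 51.0%, beside 43.1% and 39.7% over all genes. Since 74.2% of all 66 members were lower in rpb2-10, the shares of 77.8%, 81.8% and 71.4% are close to the members' own rate.

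Whether an rpb1 allele and rpb2-10 differ in effect was tested as a difference of fold changes, which crosses the 2 sets of arrays. The effects of rpb1-1 and rpb2-10 differed in 48 members, where they did in 56.7% of all genes. The effect of rpb1-1 lay above that of rpb2-10 in 44 members (66.7%, beside 31.1% of all genes) and below it in 4 (6.06%, beside 25.6%). MRPL3 differed most, by 1.32 ± 0.10 (adjusted p = 3.16e-07). MRPL3 read 11.42, 11.36 and 11.33 in rpb1-1 against 10.99, 11.03 and 10.96 in WT1B, a rise of 0.38 ± 0.07, where rpb2-10 showed a fall. RSM28, a small-subunit gene, had 0.45 ± 0.06 in rpb1-1 and -0.62 ± 0.06 in rpb2-10, and RSM24, of the same subunit, 0.40 ± 0.05 and -0.67 ± 0.05. The effects of rpb1S751F and rpb2-10 differed in 40 members, where they did in 51.7% of all genes. Those of rpb1S751F were above in 26 members (39.4%, beside 30.7% of all genes) and below in 14 (21.2%, beside 21.0%). With array medians subtracted these counts were 21 and 17. The lowest of these differences was that of MRPL32, at -1.39 ± 0.14. MRPL32 did not pass in rpb2-10 (8.13, 8.07 and 8.21 in WT1A, 7.96, 8.15 and 7.97 in rpb2-10, -0.11 ± 0.10).

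The MRP-prefixed genes were split by subunit. Of the 8 that encode 37S proteins (MRP1, MRP2, MRP4, MRP10, MRP13, MRP17, MRP21 and MRP51), 4 rose and 3 fell in rpb1-1, 4 fell in rpb1S751F and 7 fell in rpb2-10. Of all genes tested 31.7% rose and 29.8% fell in rpb1-1, 28.3% fell in rpb1S751F and 30.8% in rpb2-10, so 3 of 8 lower in rpb1-1 is near the background. Of the 3 that encode 54S proteins, MRP7, MRP20 and MRP49, all fell in rpb2-10, at -0.77 ± 0.07, -0.34 ± 0.09 and -0.51 ± 0.07. MRP20, whose product lies by the exit tunnel, and MRP49 rose in rpb1-1, by 0.40 ± 0.09 and 0.20 ± 0.07, although MRP49 lost this call in 4 of the 6 cases with 1 array left out (adjusted p up to 0.106), and none of the 3 passed in rpb1S751F.

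The members also differed by the length of their gene models, which the choice of members did not use. Lengths ran from 213 to 1887 bp in the reference annotation, and the 66 were divided into 3 equal sets of 22. In rpb2-10 all 22 of the longest set (837 bp and over) fell, 15 of the middle set and 12 of the shortest (477 bp and under). Their median log2 fold changes were -0.45, -0.26 and -0.21. Among all genes tested in the same length ranges, 31.2%, 24.7% and 27.7% fell, with medians of -0.05, 0.05 and -0.02. In rpb1S751F the order was different, with 15 of the shortest set lower, 9 of the middle and 11 of the longest, where 35.8%, 28.2% and 26.3% of all genes of these lengths were.

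As a description across genes, which are not independent replicates, Spearman's rho between length and log2 fold change was -0.51 over the 66 members in rpb2-10 and -0.11 over all 5449 genes. Over the members it was 0.16 in rpb1-1 and 0.25 in rpb1S751F. Between the rpb2-10 fold change and the wild-type level of the members rho was 0.00. The short MRPL38 (417 bp) departs from the length order, and MRPL3 (1173 bp) follows it. This division was chosen after values had been seen, and the count of 22 stayed between 20 and 22 under the other settings tried.

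**Figure D4:**
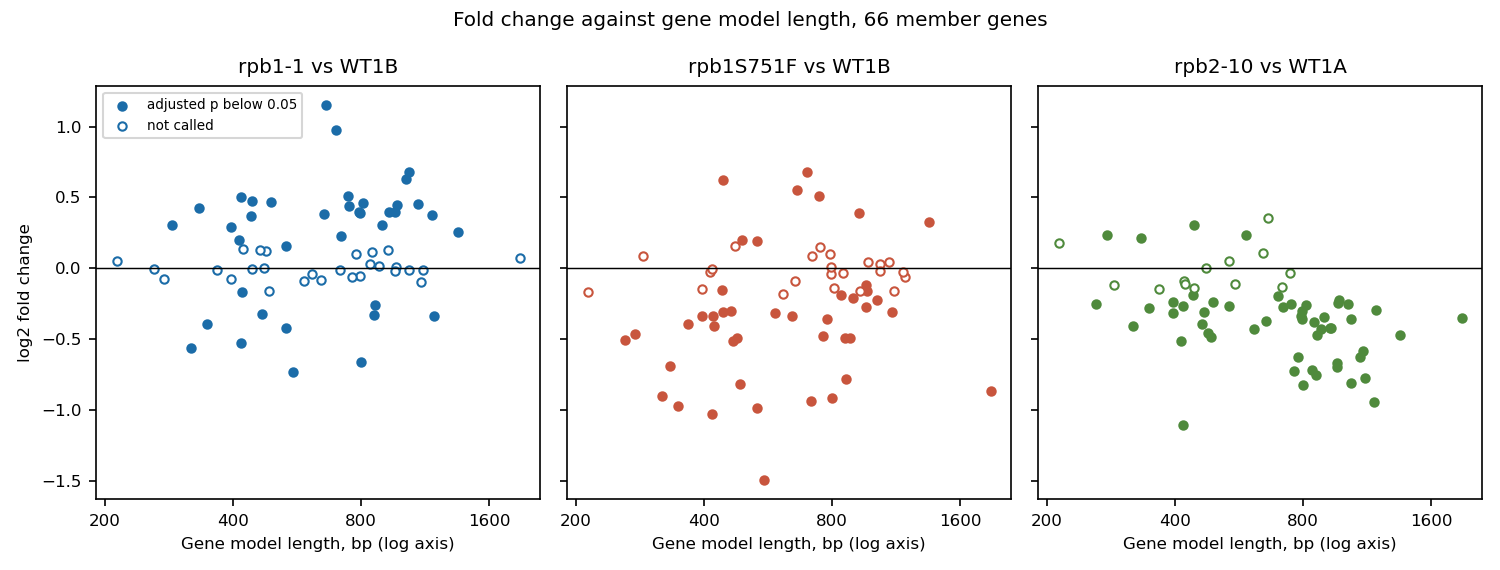
Log2 fold change of the 66 members against gene model length in bp (log axis) in each mutant, with filled points for adjusted p below 0.05. In rpb2-10 the 22 members of 837 bp and over are all below 0 and filled, and in the rpb1 alleles long members lie on both sides.

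Genes of other parts of the mitochondrial translation system were compared next. Their counts are to be read against all genes tested, of which 31.7% rose and 29.8% fell in rpb1-1, 36.0% rose and 28.3% fell in rpb1S751F, and 26.2% rose and 30.8% fell in rpb2-10. Of 12 further mitoribosomal proteins with other names 11 were measured, all but VAR1. In rpb2-10, 7 of the 11 fell and none rose, with a median of -0.26. NAM9, the gene of the small-subunit relative of bacterial S4, changed by -0.64 ± 0.08 and IMG2, of the large subunit, by -0.38 ± 0.06. In rpb1S751F 6 of the 11 fell and 1 rose (median -0.16), led by RTC6 (-0.94 ± 0.07) and MNP1 (-0.60 ± 0.06), both large-subunit genes. In rpb1-1 5 rose and 3 fell (median 0.08), including MHR1 at 0.29 ± 0.06 and IMG1 at -0.44 ± 0.08.

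Of 10 mitochondrial translation factors, 6 fell and 1 rose in rpb2-10 (median -0.46), 5 fell and 3 rose in rpb1S751F (median -0.15), and 4 rose and 2 fell in rpb1-1 (median -0.01). MRF1, the release factor gene, fell in all 3 mutants, by 0.93 ± 0.06, 0.66 ± 0.06 and 0.54 ± 0.06 in the order rpb1-1, rpb1S751F, rpb2-10. RRF1, the gene of the recycling factor, fell in rpb1S751F (-0.63 ± 0.07) and rpb2-10 (-0.49 ± 0.07). MEF2, which encodes an elongation factor G relative, rose by 1.73 ± 0.13 in rpb1-1.

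The 12 mitochondrial aminoacyl-tRNA synthetases had 8 lower and 1 higher in rpb2-10 (median -0.30), 6 lower and 2 higher in rpb1S751F (median -0.28), and 3 lower and 1 higher in rpb1-1 (median -0.16). In rpb1-1 these are 25% and 8.33% of the list, both below the shares over all genes. MSM1, the methionyl enzyme, changed by -0.55 ± 0.08 in rpb1-1 and -0.73 ± 0.08 in rpb1S751F, and MSE1, the glutamyl enzyme, by -0.58 ± 0.08 in rpb1-1. The isoleucyl enzyme gene ISM1 rose in rpb1S751F (0.67 ± 0.07). In rpb2-10 MSY1, the tyrosyl enzyme, stood at -0.85 ± 0.09 and MSF1, the phenylalanyl enzyme, at -0.81 ± 0.16.

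Of 17 translational activators, proteins that promote translation of single mitochondrial messages, 12 fell and 1 rose in rpb2-10 (median -0.35), 9 fell and 4 rose in rpb1S751F (median -0.28), and 6 rose and 1 fell in rpb1-1 (median 0.02). ATP22, the activator for an ATP synthase message, and SOV1 were lower in rpb2-10, at -0.90 ± 0.10 and -0.85 ± 0.10. PET309, the activator for COX1, and AEP3 were lower in rpb1S751F, at -1.12 ± 0.08 and -1.18 ± 0.11. CBP3 and CBS1, which act on cytochrome b, rose in rpb1-1, by 0.52 ± 0.06 and 0.53 ± 0.08.

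Of 10 assembly and rRNA modification genes, 6 fell and none rose in rpb2-10 (median -0.38), 5 fell and 1 rose in rpb1S751F (median -0.25), and 4 rose and 2 fell in rpb1-1 (median -0.01). MRM1, the methyltransferase of the large mitochondrial rRNA, had the largest change of these in rpb2-10, at -1.79 ± 0.07. OMS1 was at -0.83 ± 0.07 there and at -0.70 ± 0.07 in rpb1S751F, and MAM33 at -1.11 ± 0.13 in rpb1S751F. AFG3 and YTA12 encode the m-AAA protease that processes Mrpl32. AFG3 rose by 0.95 ± 0.10 in rpb1-1 and by 0.76 ± 0.10 in rpb1S751F. YTA12 rose by 0.29 ± 0.07 in rpb1-1, with 0.16 ± 0.07 in rpb1S751F (adjusted p = 0.0532). Any relation to the level of the MRPL32 message was not tested. MTG1, a GTPase gene, rose in rpb1-1 (0.47 ± 0.08).

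Mitochondrial transcription and genome maintenance genes (11) had 6 lower and 2 higher in rpb2-10 (median -0.20), 3 lower and 4 higher in rpb1S751F (median 0.02), and 6 higher and 1 lower in rpb1-1 (median 0.20). ABF2, which packages mitochondrial DNA, rose in all 3 mutants, by 0.52 ± 0.06, 0.41 ± 0.06 and 0.50 ± 0.06. MTF2 and SUV3, which act on mitochondrial RNA, fell in rpb2-10, by 0.82 ± 0.07 and 0.77 ± 0.07. HMI1, a helicase gene, fell by 0.66 ± 0.09 in rpb1S751F, and MGM101 rose by 0.72 ± 0.08 in rpb1-1.

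Of 24 protein import genes 10 fell and 2 rose in rpb2-10 (median -0.17), 14 fell and 3 rose in rpb1S751F (median -0.20), and 8 fell and 4 rose in rpb1-1 (median -0.01). TOM20, a receptor of the outer membrane, fell in rpb1-1 (-0.48 ± 0.05) and rpb2-10 (-0.38 ± 0.05), and TIM23, the inner membrane channel gene, by 0.53 ± 0.06 in rpb2-10. TIM9, a chaperone gene of the intermembrane space, fell by 1.46 ± 0.10 in rpb1S751F, where SSC1, the matrix Hsp70 gene, rose by 0.83 ± 0.08. MAS1, a subunit gene of the processing peptidase, rose by 0.58 ± 0.06 in rpb1-1.

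**Figure D5:**
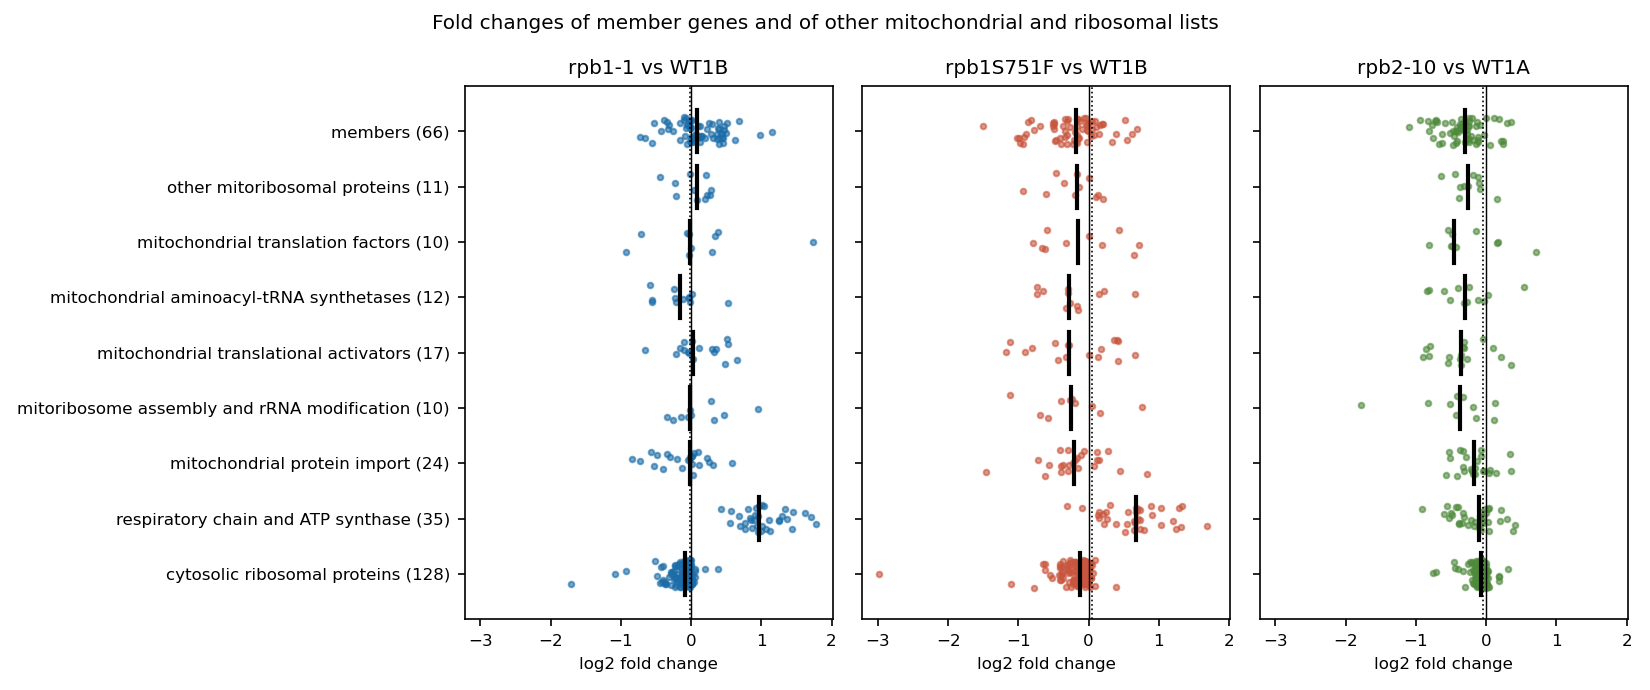
Log2 fold change of each gene (points) in the members and in 8 other gene lists, with the median of each list (thick bar), 0 (solid line) and the median of all genes tested (dotted line). The members shift lower in rpb2-10, with a median of -0.30, while the respiratory chain and ATP synthase genes shift higher in both rpb1 alleles, with medians of 0.97 and 0.67.

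The genes of the respiratory chain and ATP synthase, many of whose complexes also hold products of the mitochondrial ribosome, were mostly higher in the rpb1 alleles. Of 35 such genes, 34 rose and none fell in rpb1-1 (median 0.97), 29 rose and 1 fell in rpb1S751F (median 0.67), and 5 rose and 12 fell in rpb2-10 (median -0.10). The shares that rose in the rpb1 alleles were 97.1% and 82.9%, beside 31.7% and 36.0% of all genes. In rpb2-10 34.3% fell, near the 30.8% of all genes, and 14.3% rose, beside 26.2%. The median of all genes in rpb2-10 was -0.05. ATP7 and SDH3 rose by 1.25 ± 0.07 and 1.44 ± 0.08 in rpb1-1, and SDH3 and QCR2 by 1.20 ± 0.08 and 1.32 ± 0.11 in rpb1S751F. In rpb2-10, CYC1, the cytochrome c gene, changed by -0.91 ± 0.09 and QCR7 by -0.60 ± 0.07. On single arrays, the median of these genes minus the array's median was 1.91 to 2.10 in WT1B, 2.85 to 3.04 in rpb1-1 and 2.38 to 2.44 in rpb1S751F, and the groups were apart, as they were in the MATa set (1.87 to 1.98 in WT1A, 1.75 to 1.80 in rpb2-10).

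Genes of the cytosolic ribosome were seldom higher. Of 128, 2 rose and 36 fell in rpb1-1 (median -0.08), 1 rose and 56 fell in rpb1S751F (median -0.12), and 1 rose and 18 fell in rpb2-10 (median -0.08). The shares that fell were 28.1%, 43.8% and 14.1%, of which only that in rpb1S751F was above the share over all genes (29.8%, 28.3% and 30.8%). Most changes were nevertheless small and negative, with 114, 115 and 113 of the 128 log2 fold changes below 0. All 3 mutant arrays lay below all wild-type arrays on 81, 91 and 82 of the 128. Over all genes the shares with that pattern were 31.0%, 27.5% and 42.0%. Many of these are near-identical pairs that probes may not tell apart.

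General stress genes were mostly higher in the rpb1 alleles. Of 25, 23 rose and 1 fell in rpb1-1 (median 1.68) and 21 rose and 1 fell in rpb1S751F (median 1.47), while 7 rose and 5 fell in rpb2-10 (median -0.02). The shares that rose in the rpb1 alleles were 92% and 84%, beside 31.7% and 36.0% of all genes. In rpb2-10 28% rose, near the 26.2% of all genes, and 20% fell, beside 30.8%. Their median minus the array's median was -0.95, -0.56 and -0.34 in WT1B, 0.27, 1.05 and 0.69 in rpb1-1, and 0.31, 0.88 and 0.61 in rpb1S751F. It was -0.96, -0.84 and -0.94 in WT1A and -0.38, -0.40 and -0.59 in rpb2-10. In each set this median of levels was higher on all mutant arrays than on the wild-type arrays. In rpb2-10 that was not a rise of most of these genes, since 12 had positive and 13 negative log2 fold changes. The part of the stress genes' changes in the members' values was not tested.

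Of 14 regulators of mitochondrial and ribosomal gene expression, 8 rose and 2 fell in rpb1-1 (median 0.21), 5 rose and 3 fell in rpb1S751F (median 0.02), and 1 rose and 8 fell in rpb2-10 (median -0.31). In rpb1-1 57.1% rose and 14.3% fell, beside 31.7% and 29.8% of all genes. The shares in rpb1S751F were 35.7% and 21.4%, beside 36.0% and 28.3%. Those in rpb2-10 were 7.14% and 57.1%, beside 26.2% and 30.8%. HAP4, which encodes the activating subunit of the Hap complex of respiratory genes, rose by 1.30 ± 0.21 in rpb1-1, fell by 1.73 ± 0.21 in rpb2-10, and was at -0.20 ± 0.21 in rpb1S751F (adjusted p = 0.419). PUF3 rose by 0.52 ± 0.11 in rpb1-1 and fell by 0.33 ± 0.11 in rpb2-10, with 0.13 ± 0.11 in rpb1S751F (adjusted p = 0.332). SFP1, an activator of ribosome genes, fell in all 3 mutants, by 0.41 ± 0.10, 0.58 ± 0.10 and 1.04 ± 0.10, as did HAP1, the haem-dependent activator (-0.45 ± 0.11, -0.34 ± 0.11 and -0.91 ± 0.11). IFH1, a coactivator of cytosolic ribosome genes, fell in rpb1S751F (-0.58 ± 0.12) and rpb2-10 (-0.47 ± 0.12).

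The repressor genes STB3 and MIG1 were high in the rpb1 alleles. STB3, which acts on ribosome biogenesis genes, rose by 0.55 ± 0.07 in rpb1-1 and by 1.21 ± 0.07 in rpb1S751F, and MIG1, of glucose repression, by 0.64 ± 0.08 and 0.77 ± 0.08, with -0.48 ± 0.08 in rpb2-10. MSN4, a general stress activator, rose by 0.52 ± 0.18 and 1.25 ± 0.18 and fell by 1.36 ± 0.18 in rpb2-10, while MSN2 was at 0.25 ± 0.09 and -0.28 ± 0.09 in rpb1-1 and rpb2-10. Of the other Hap subunits, HAP2 rose in all 3 mutants (0.82 ± 0.10, 0.59 ± 0.10 and 0.31 ± 0.10), HAP3 in rpb1-1 (0.17 ± 0.05) and HAP5 in rpb1S751F (0.53 ± 0.09). FHL1 and SNF1 passed in no comparison, with values from -0.22 to 0.03.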

How the data were processed

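Per the submitters' processing notes the arrays were processed with RMA, and limma is named without its role. The deposited table holds log2 levels of 10928 probe sets on 15 Affymetrix arrays (the authors' values, used as given). By their values the MATα and MATa arrays form 2 sets on different scales, as if normalized apart, which no source states. Names came from the platform annotation, with symbols brought up to date from the R64 reference table, which also gave gene model lengths (97% are multiples of 3). Of 5498 probe sets that name 1 yeast gene, the brightest per gene was kept, leaving 5449 genes. No sequences were used here, and gene coordinates of that reference served only to place the members on chromosomes and to find neighbours.

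limma 3.58.1 in R 4.3.3 fitted 1 mean per group to all 15 arrays (lmFit, eBayes; 10 residual and 2.98 prior degrees of freedom), so that each gene has 1 variance for all groups. Calls were two-sided, with Benjamini-Hochberg adjustment over all 5449 genes and a threshold of 0.05. Errors are SE with n = 3, and the number of arrays limits the precision. The procedure was tested on simulated data. Replicates had at most 53 identical values in a pair and were counted singly.

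The members, the 13 gene lists and the naming rule were chosen with earlier results of these data known. The rule names, per mutant, the 5 highest and 5 lowest called members with arrays apart, members called alike or oppositely across mutants, extremes of the tests between mutants, 2 called genes with the smallest p per list, and the regulators. Others, among them YTA12, MRPL51 and members given by pattern, were named after their values were seen. Alternatives were the replicate number as a block, separate fits per array set, array weights, another variance prior, further scaling, a filter on dim genes, exclusion of shared probes, averaged probe sets and leaving out each array.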

Additional observations from a re-analysis of the deposited data

Results flagged for a closer look

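Some results were singled out because the effect of an rpb1 allele differed from that of rpb2-10 in limma's test of the difference, which crosses the 2 sets of arrays. Between rpb1-1 and rpb2-10 the effects differed in 48 of the 66 members, where they did in 56.7% of all genes tested. The log2 difference, rpb1-1 effect minus rpb2-10 effect, was 1.32 for MRPL3, 1.17 for MRPL16 and 1.07 for RSM28, and it was -0.62 for MRPL32, -0.33 for MRPL20 and -0.31 for RSM19. Between rpb1S751F and rpb2-10 the effects differed in 40 members, where they did in 51.7% of all genes. The share of members with the lower effect in rpb1S751F, 21.2%, was that of all genes (21.0%). The difference, rpb1S751F effect minus rpb2-10 effect, was 0.91 for MRPL3, 0.88 for MRPL16 and 0.81 for MRPS5, and it was -1.39 for MRPL32, -0.91 for RSM27 and -0.80 for MRPS17. The RSM19 difference between rpb1-1 and rpb2-10 was no longer called when single arrays were left out (highest adjusted p = 0.0919). No group was tested for single outlying arrays, because each had 3.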

How the results depend on the processing

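Of the alternatives run, all 121 recounts stayed within 1.5 times their reported count. They covered total calls and the long members lower in rpb2-10. Of 48 recomputed medians, 47 stayed within the replicate spread. The exception was the median of the members in rpb2-10, which moved from -0.30 to -0.24 with array medians subtracted. The median of all genes tested moved with it, from -0.05 to 0.02. The block, separate fits, other variance prior, exclusion of shared probes and averaged probe sets cannot change a member's fold change. For these settings the unchanged medians and directions were fixed in advance, and only calls could differ. By direction, the higher calls in rpb2-10 (4) ranged from 2 to 7, the latter with array weights, and the lower calls in rpb1-1 against rpb1S751F (2) reached 4 with array weights. Of the recomputed values of single named members, 997 kept their direction and side of the threshold and 23 kept only the direction. These concerned RSM19, MRP2 and MRPL20, and MRPL16 in rpb2-10, which had adjusted p = 0.0567 in limma with array medians subtracted. Leaving out each array in turn gave 36 to 38 members called in rpb1-1, 38 to 44 in rpb1S751F and 47 to 51 in rpb2-10. With the replicate number as a block, 38, 43 and 53 members were called in these comparisons, as without it, and 42 of the 43 in rpb1S751F were the same genes. Same-numbered arrays deviated together in some pairs and not in others (r from -0.31 to 0.50). Replicate 1 went with replicate 1 in each MATα pair of groups (r of 0.32, 0.48 and 0.37). In the MATa set r was -0.24 to -0.02. Deviations from a mean of 3 arrays depend on each other, so this check cannot decide whether the numbers mark shared batches. Fitting each set of arrays alone gave 35, 38 and 58 calls. Counts without MRP8 (37, 42 and 53) and those by length were added after seeing the data. The number of arrays and the shared variance limit small changes.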
